A study of Homo sapiens with 16 samples.

Results

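The class I histone deacetylases *HDAC1*, *HDAC2*, *HDAC3* and *HDAC8* were followed in bladder cancer (BC) cells given the HDAC inhibitor CM-1758. They were taken by gene symbol and are 4 of the 35993 symbols of the deposited count table, and all 4 passed the filter on low counts, as did 21297 genes in total. The 4 established human BC cell lines 253J, J82, RT112 and TCCSUP received CM-1758 at their own IC50 for 48 h or vehicle (0.01% DMSO) for the same time. Independent experiments gave 2 libraries for each of the 8 groups, 16 altogether, made from total RNA after removal of ribosomal RNA. Since every line had its own concentration, dose and cell line cannot be told apart in any difference between lines.

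Class I HDACs are nuclear, zinc-dependent enzymes that remove acetyl groups from histone tails, which in general goes with a more compact and less transcribed chromatin. HDAC1 and HDAC2 are close paralogs that work as the catalytic pair of the NuRD, SIN3, CoREST and MiDAC complexes. HDAC3 works in the NCoR and SMRT corepressor complexes, which also activate it. HDAC8 works without such a complex, and its best known substrate is the cohesin subunit SMC3. Hydroxamic acids and related inhibitors occupy the zinc site of the enzymes, so the amount of transcript and the activity of the enzyme are separate quantities, and only transcript was measured here.

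In GENCODE on GRCh38, *HDAC1* lies on chr1:32292086-32333635 (plus strand), *HDAC2* on chr6:113933028-114011308 (minus strand), *HDAC3* on chr5:141620876-141636870 (minus strand) and *HDAC8* on chrX:72329516-72573199 (minus strand). The counts themselves were made on GRCh37. The reference transcripts have 14, 14, 15 and 11 exons. The promoters of *HDAC3* and *HDAC2* are shown because these were the members that rose in all 4 lines and in none. They are RefSeq sequences (GRCh38.p14, the 250 bases before the start of the transcript, 5′ to 3′ on the minus strand, chr5:141636850-141637099 and chr6:113971149-113971398), with each GC box, GGGCGG on either strand and the site bound by SP1 and its relatives, in capitals.
HDAC3 promoter: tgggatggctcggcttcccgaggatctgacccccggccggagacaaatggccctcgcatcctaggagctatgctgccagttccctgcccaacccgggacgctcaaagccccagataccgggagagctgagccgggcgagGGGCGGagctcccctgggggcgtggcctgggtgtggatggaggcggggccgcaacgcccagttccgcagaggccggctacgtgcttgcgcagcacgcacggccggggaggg
HDAC2 promoter: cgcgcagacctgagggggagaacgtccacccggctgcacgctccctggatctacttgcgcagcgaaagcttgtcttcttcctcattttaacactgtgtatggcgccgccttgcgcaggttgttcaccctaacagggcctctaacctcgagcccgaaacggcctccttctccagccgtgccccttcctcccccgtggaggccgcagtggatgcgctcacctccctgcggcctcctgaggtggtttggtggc
In windows reaching 50 bases further into the transcript, *HDAC1* held 6 GC boxes (overlapping matches counted), *HDAC3* held 3, and *HDAC2* and *HDAC8* held 0, while 45% of 35116 RefSeq promoters held at least 1. GC content was 73.7% for *HDAC1*, 74% for *HDAC3*, 64% for *HDAC2* and 49.3% for *HDAC8*, around a median of 58.7%. A CCAAT box (CCAAT on either strand) was found in *HDAC1* alone, and in 34.6% of all promoters. TATAAA (11.5% of promoters), CACGTG (7.26%) and CCGGAAG (10.3%) were in none of the 4. These matches describe the letters of the windows and were not tested against the response.

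Total counts ran from 27655401 to 32537104 in control and from 22506431 to 31547585 in treated libraries. Depth was ample for the members: *HDAC1* had 1779 to 4969 counts per library, *HDAC2* 1542 to 5513, *HDAC3* 1156 to 4618 and *HDAC8* 360 to 1059. Levels are given as per-million-scaled counts (CPM, with TMM-adjusted library sizes), and changes as log2 fold changes from edgeR with Benjamini-Hochberg adjusted p-values. A gene was called at an adjusted p under 0.05. The treatment moved a large part of the transcriptome, so calls were common. In 253J 28.8% of tested genes rose and 22.4% fell, in J82 24% and 18.5%, in RT112 27.4% and 20.2%, and in TCCSUP 32% and 22.1%. In that order of lines, the middle log2 fold change over all tested genes was 0.1, 0.047, 0.119 and 0.2. Scaled by library size alone, these medians were 0.372, 0.192, 0.267 and 0.512, and the share of higher genes among called genes went from 56.2% to 68.5%, 56.5% to 66.2%, 57.6% to 66.3% and 59.1% to 73.9%. Of 15 epithelial and urothelial markers, control 253J had 6 above 5 CPM on average, J82 5, TCCSUP 9 and RT112 13. *KRT8* was at 169 to 3406 CPM over the control libraries. *EPCAM* had at most 1.6 CPM in control 253J and J82, and *UPK2* was at 0 there and in control TCCSUP. Other markers of this list were high, with *KRT7* at 1425 to 1991 CPM in control J82 and *CDH1* at 171 to 192 CPM in control 253J. The mesenchymal marker *VIM* had 1307 to 1690 CPM in control 253J and at most 0.719 CPM in control RT112. Of the 5 leukocyte and endothelial markers, the T cell marker *CD3E* was at 0 in all control libraries, while *PTPRC*, the pan-leukocyte marker, had 8.63 to 10.5 CPM in control TCCSUP. The macrophage marker *CD68* had 24.7 to 68.4 CPM in control J82, 19.4 to 20.6 CPM in control TCCSUP and 27.4 to 37.1 CPM in treated 253J. The summed level of these 5 ran in control and treated libraries from 6.97 to 8.58 and 29.3 to 39.8 CPM in 253J, from 26.3 to 69.8 and 10.1 to 21.3 CPM in J82, from 29.1 to 31.7 and 13.6 to 21.6 CPM in TCCSUP, and from 6.37 to 6.77 and 5.09 to 5.45 CPM in RT112, and its part in the results was not tested.

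*HDAC3*, the catalytic subunit of the NCoR and SMRT complexes, was the member that rose in all 4 cell lines. In 253J it went from 58.4 and 58.3 CPM in control to 161 and 156 CPM in treated cells, a log2 fold change of 1.44 (SE 0.172, adjusted p = 6.16e-06). Every treated 253J library thus lay well above both controls, which differed from each other by 0.184% of their mean. In J82 the controls had 43.9 and 57.6 CPM and the treated libraries 80.7 and 114 CPM (log2 fold change 0.94, SE 0.17, adjusted p = 0.000435). In TCCSUP the values were 48.6 and 53.8 CPM in control against 99.3 and 83.9 CPM with CM-1758 (0.84, SE 0.17, adjusted p = 0.000775). In both lines the treated libraries were again higher than both controls, with a wider spread between replicates in J82. The smallest change was in RT112, from 57.9 and 53.3 CPM to 77.3 and 72.2 CPM (0.43, SE 0.169, adjusted p = 0.0497). There the groups did not overlap either, but the call stood at the threshold: leaving out any of the 12 libraries of 253J, RT112 or TCCSUP gave adjusted p-values of 0.0594 to 0.219. It was also lost without the low-count filter (0.078), without 7 small noncoding RNA genes (0.0503) and after centring on the median gene (0.31, adjusted p = 0.147). Being called higher in all 4 lines was true of 6.69% of tested genes. Averaged over the lines *HDAC3* rose by 0.91 on the log2 scale (SE 0.0851, adjusted p = 1.92e-07), where 36.9% of tested genes were called higher and 25% lower. Among all genes this was a moderate change: the log2 fold change of *HDAC3* exceeded that of 78.4% of tested genes in 253J, 73.2% in J82, 66.5% in TCCSUP and 59.5% in RT112. In bulk cultures, more transcript per cell and more cells with the transcript cannot be told apart.

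**Figure D1:**
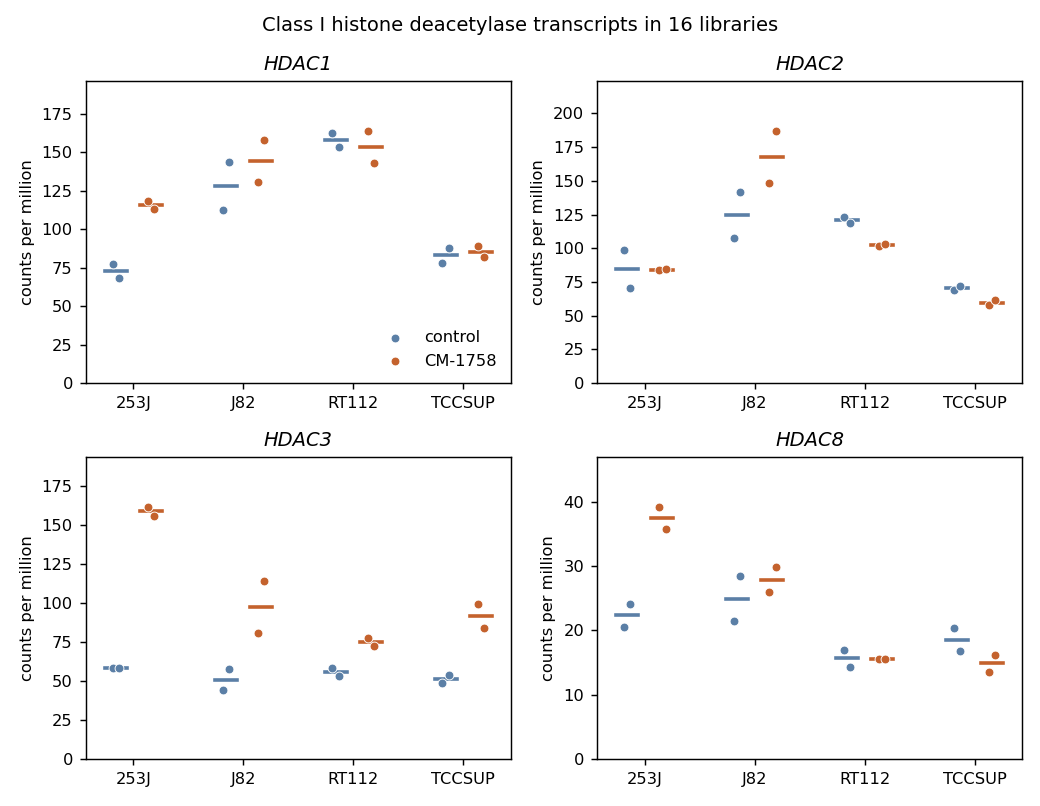
CPM of the 4 members (vertical axes, starting at 0, with a scale for each gene) in the 2 control and 2 treated libraries of each cell line (points, 1 per library) with group means (bars). The treated *HDAC3* points lie above the control points in all 4 lines, while *HDAC1* and *HDAC8* are separated upwards in 253J alone.

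*HDAC1*, a core subunit of NuRD and SIN3, rose in 253J, from 77.6 and 68.1 CPM to 118 and 113 CPM (log2 fold change 0.67, SE 0.151, adjusted p = 0.0018). Both treated 253J libraries were above both controls. In the other lines the groups overlapped. J82 had 113 and 144 CPM in control and 131 and 158 CPM with CM-1758 (0.17, 95% interval -0.15 to 0.49, adjusted p = 0.387). In RT112, 162 and 153 CPM stood against 164 and 143 CPM (-0.041, interval -0.36 to 0.28, adjusted p = 0.875), and in TCCSUP, 78.3 and 88.1 CPM against 89.2 and 81.7 CPM (0.039, interval -0.28 to 0.36, adjusted p = 0.857). The intervals of RT112 and TCCSUP thus leave room for changes of up to about 0.36 on the log2 scale in either direction. The mean over the lines was 0.21 (SE 0.0751, adjusted p = 0.0244). That call was lost, at 0.0511 to 0.0712, without any of 8 libraries (253J control replicate 3, 253J CM-1758 replicate 1, J82 control replicate 1, J82 CM-1758 replicate 3, RT112 control replicate 2, RT112 CM-1758 replicate 1, TCCSUP control replicate 1 or TCCSUP CM-1758 replicate 1), and after centring on the median gene (0.092, adjusted p = 0.321).

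*HDAC8*, the cohesin deacetylase and the member with the fewest counts, also rose in 253J, from 20.5 and 24.1 CPM to 39.1 and 35.7 CPM (log2 fold change 0.75, SE 0.172, adjusted p = 0.00205), with no overlap between groups. With the replicate numbers as a block within each line the change was 0.57 and did not pass. In that fit the 253J value rests on replicate 3, the only shared number, with 1 control and 1 treated library. In J82 the values of 21.4 and 28.4 CPM in control and 25.9 and 29.8 CPM in treated cells overlapped (0.16, interval -0.2 to 0.53, adjusted p = 0.48). RT112 showed the closest agreement of the groups, with 17 and 14.3 CPM in control around 15.6 and 15.6 CPM in treated cells (-0.003, interval -0.38 to 0.37, adjusted p = 1). In TCCSUP the direction was opposite to 253J, with 20.4 and 16.7 CPM in control and 13.5 and 16.2 CPM with CM-1758. These groups did not overlap, but the difference of -0.32 (SE 0.176, adjusted p = 0.137) did not pass the test, and it ran from -0.46 to -0.18 when 1 library was left out. With treated libraries centred on the median gene it was -0.52 (adjusted p = 0.0208). The mean over the lines was 0.15 (SE 0.087, adjusted p = 0.164). It passed under RLE scaling (0.21, adjusted p = 0.0483), which places more of the transcriptome above control than TMM does.

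*HDAC2*, the paralog of HDAC1, was called in no line. In 253J the treated libraries at 83.7 and 84.6 CPM fell between the controls at 98.4 and 70.3 CPM (-0.003, interval -0.37 to 0.36, adjusted p = 1). The other lines went different ways. J82 had 108 and 142 CPM in control and 149 and 187 CPM with CM-1758 (0.43, SE 0.17, adjusted p = 0.0551). In RT112, 123 and 119 CPM in control stood against 102 and 104 CPM in treated cells (-0.24, SE 0.17, adjusted p = 0.269). In TCCSUP, 69.3 and 72.2 CPM in control stood against 57.7 and 61.7 CPM (-0.25, SE 0.171, adjusted p = 0.243). In these 3 lines the groups did not overlap, with treated cells higher in J82 and lower in RT112 and TCCSUP, and none of the 3 differences passed. With 2 libraries per group, separation arises often without a change. Its share over all genes was not counted, here or for the other members, the ratios and the sum. The J82 value lay just outside the threshold and inside it under 5 of 11 alternatives, among them DESeq2 with all lines in 1 model (0.52, adjusted p = 0.00977), and without 253J control replicate 2 or 3, J82 control replicate 3 or J82 CM-1758 replicate 1 (adjusted p from 0.0133 to 0.0374). In J82, replicate 3 was higher than replicate 1 for all 4 members in control and treated cells alike. The share of all tested genes that did so was not counted, so this cannot be called particular to the members. The mean over the lines was -0.014 (SE 0.0851, adjusted p = 1).

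**Figure D2:**
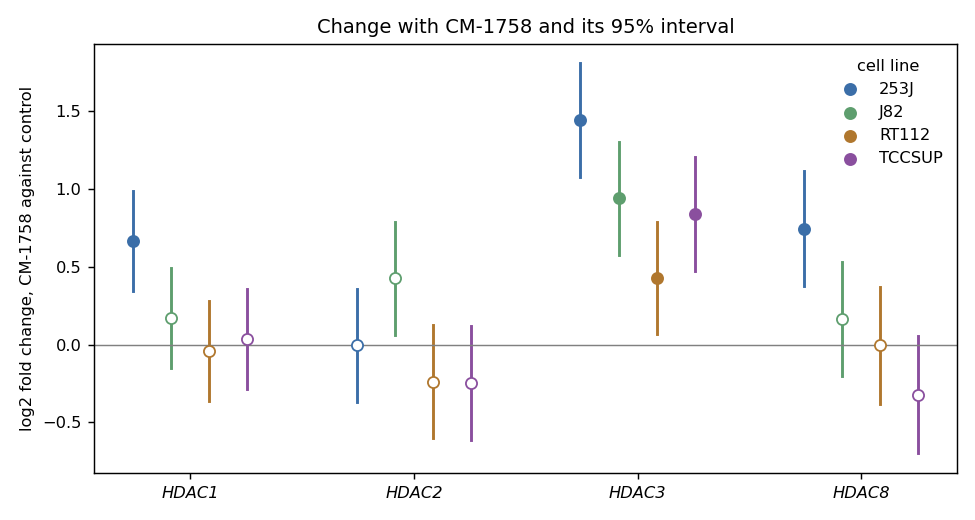
Log2 fold change of CM-1758 against control (vertical axis) with its 95% interval from edgeR (lines) for each member and cell line (colours). Filled points passed an adjusted p of 0.05: *HDAC3* in all 4 lines and *HDAC1* and *HDAC8* in 253J, while no *HDAC2* point is filled.

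By count, 3 of the 4 members were called higher in 253J and 1 in each of J82, RT112 and TCCSUP, and 0 were called lower in any line. Of all tested genes, 28.8%, 24%, 27.4% and 32% were called higher in 253J, J82, RT112 and TCCSUP, and 22.4%, 18.5%, 20.2% and 22.1% lower. The count of 1 in J82, RT112 and TCCSUP is thus near the share of all genes. Under other settings, *HDAC2* was called lower in TCCSUP with edgeR on that line alone (adjusted p = 0.0407), and *HDAC2* (0.0388) and *HDAC8* (0.0208) were called lower there after centring on the median gene. At the stricter thresholds used in the study for its Venn diagrams, an absolute log2 fold change above 2 and an adjusted p under 0.01, 0 of the 4 members were called in any line, against 17.5% of tested genes in TCCSUP, 12.9% in 253J, 12.8% in RT112 and 10.1% in J82.

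The response differed between cell lines for *HDAC1*, *HDAC3* and *HDAC8*. An F test of the interaction over the 4 lines, which 51.9% of tested genes passed, gave adjusted p-values of 0.0412 for *HDAC1*, 0.0164 for *HDAC3* and 0.0122 for *HDAC8*, and 0.0786 for *HDAC2*. Every pair of lines that differed included 253J. *HDAC3* rose by 1.01 more on the log2 scale in 253J than in RT112 (SE 0.239, adjusted p = 0.00481). *HDAC8* changed by 1.07 more in 253J than in TCCSUP (SE 0.246, adjusted p = 0.00437) and by 0.75 more than in RT112 (adjusted p = 0.0316). *HDAC1* changed by 0.71 more in 253J than in RT112 (SE 0.212, adjusted p = 0.0203) and by 0.63 more than in TCCSUP (adjusted p = 0.0386). Of the 24 comparisons of a member between a pair of lines these 5 passed, while 26.7% passed over all genes. For *HDAC2*, the differences of J82 from RT112 (0.66, adjusted p = 0.0617) and from TCCSUP (0.67, adjusted p = 0.0591) did not pass. With the replicate numbers as a block over all lines, the F test of *HDAC1* did not pass (adjusted p = 0.077). With a block within each line, that of *HDAC8* did not pass and that of *HDAC2* did. In that fit the 253J change rests on 1 control and 1 treated library. The F test of *HDAC1* was lost, at 0.0532 to 0.193, without any of the 4 libraries of 253J, any of the 4 of TCCSUP, either control of RT112 or RT112 CM-1758 replicate 2, and without a low-count filter (0.0529). That of *HDAC3* was lost without 253J control replicate 2 or 3, RT112 control replicate 1 or RT112 CM-1758 replicate 2 (0.0507 to 0.0555), and that of *HDAC8* without 253J control replicate 2 (0.0614). That of *HDAC2* passed without the same 4 libraries that brought in its J82 call (0.0231 to 0.0432).

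The untreated lines differed in *HDAC1*, *HDAC2* and *HDAC8*. Over all genes, 52% of comparisons of control levels between pairs of lines passed the test, and 54.1% of those of treated levels. In control cells *HDAC1* ran from RT112 (mean 158 CPM) through J82 (128 CPM) and TCCSUP (83.2 CPM) to 253J (72.9 CPM). Of these neighbours J82 and TCCSUP differed (adjusted p = 0.00306), and RT112 from J82 (0.108) and TCCSUP from 253J (0.311) did not beyond their spread. *HDAC2* ran from J82 (125 CPM) and RT112 (121 CPM) to 253J (84.3 CPM) and TCCSUP (70.8 CPM), with the step between RT112 and 253J passing (adjusted p = 0.0178). J82 and RT112 were therefore the lines with more *HDAC1* and *HDAC2*. *HDAC3* lay between 50.7 CPM in J82 and 58.4 CPM in 253J, and no neighbours differed (adjusted p from 0.612 to 1). *HDAC8* ran from J82 (24.9 CPM) through 253J (22.3 CPM) and TCCSUP (18.6 CPM) to RT112 (15.6 CPM), and no neighbours differed either (0.219 to 0.483). Lines further apart in this order did differ, with *HDAC8* higher than in RT112 by 0.67 on the log2 scale in J82 (adjusted p = 0.00434) and by 0.51 in 253J (0.021).

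With CM-1758, 253J stood above the next line for *HDAC3* (159 CPM, against 97.4 CPM in J82, adjusted p = 0.00256), for which its control mean was also the highest, and for *HDAC8* (37.4 CPM, against 27.9 CPM in J82, adjusted p = 0.0471). J82 was highest for *HDAC2* (168 CPM, against 103 CPM in RT112, adjusted p = 0.00262), and below it 253J (84.2 CPM) exceeded TCCSUP (59.7 CPM, adjusted p = 0.0239). For *HDAC8*, J82 also exceeded RT112 (15.6 CPM, adjusted p = 9e-04), while RT112 and TCCSUP (14.8 CPM) did not differ beyond their spread (adjusted p = 0.765). TCCSUP was lowest for *HDAC1* (85.5 CPM), below 253J (116 CPM, adjusted p = 0.0237), and the step from J82 (144 CPM) to 253J did not pass (0.0851).

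Ratios between members do not depend on the scaling of the libraries, since each is taken within a library. The ratio of *HDAC3* to each of the other members rose with CM-1758 in every line, and in none did control and treated libraries overlap. How often the ratios of other gene pairs separate in this way was not counted. All 3 ratios hold *HDAC3*, so they are not separate results. The log2 ratio of *HDAC1* to *HDAC3* went down by a mean of 0.7, with differences of -0.8 in TCCSUP, -0.77 in 253J, -0.76 in J82 and -0.47 in RT112. That of *HDAC2* to *HDAC3* went down by a mean of 0.92, from -0.5 in J82 to -1.42 in 253J. That of *HDAC3* to *HDAC8* rose by a mean of 0.76, from 0.43 in RT112 to 1.16 in TCCSUP. A 2-sided exact permutation test within cell lines (1296 arrangements) gave p = 0.00154 for each of the 3, the smallest value it allows, and 0.00309 adjusted over the 6 ratios tested. All 3 kept their direction and their call when any of the 16 libraries was left out. The ratios among the other members did not pass: *HDAC1* to *HDAC8* (0.06, exact permutation p = 0.579), *HDAC2* to *HDAC8* (-0.16, p = 0.34) and *HDAC1* to *HDAC2* (0.22, p = 0.0756, adjusted 0.113). The ratio of the paralogs *HDAC1* to *HDAC2* separated the groups in each line without a common direction, with differences of 0.65 in 253J, 0.29 in TCCSUP and 0.19 in RT112 against -0.26 in J82.

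**Figure D3:**
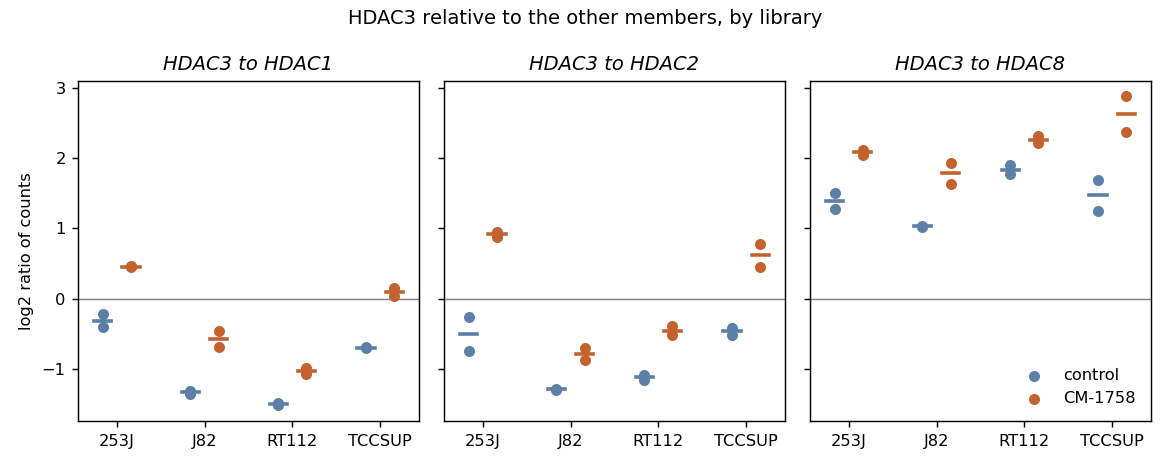
Log2 ratio of *HDAC3* counts to the counts of *HDAC1*, *HDAC2* and *HDAC8* (vertical axis, not corrected for length) in each library (points) with group means (bars), by cell line. Treated points lie above control points in all 4 lines in each panel.

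Summed over the 4 genes, class I transcripts rose by a mean of 0.33 on the log2 scale (exact permutation within lines, 2-sided, p = 0.0108). The sum went from 255 and 221 CPM to 402 and 389 CPM in 253J, from 286 and 371 CPM to 386 and 488 CPM in J82, and from 217 and 231 CPM to 260 and 243 CPM in TCCSUP. In RT112, 360 and 340 CPM in control overlapped with 358 and 335 CPM in treated cells. Thus both treated sums lay above both control sums in 3 of the 4 lines, but the sum was not tested within single lines. After centring on the median gene the mean was 0.21 and no longer passed (exact permutation p = 0.106).

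Levels of different genes can be set side by side only per length, and CPM were therefore divided by the length of the reference transcript (2124 bases for *HDAC1*, 9874 for *HDAC2*, 1959 for *HDAC3* and 2110 for *HDAC8*). On this scale *HDAC1* was highest and *HDAC3* next in all 8 control libraries. In treated cells *HDAC3* was the highest in 4 libraries, those of 253J and TCCSUP, and *HDAC1* in the other 4. The mean share of *HDAC3* in the summed class I level per kilobase went from 35.9% to 50% in 253J, from 32.1% to 46.6% in TCCSUP, from 23.4% to 33.5% in J82 and from 23.2% to 29.8% in RT112. With the length of all annotated exons in place of the transcript, an alternative chosen after seeing the data, *HDAC3* was highest in 2 treated libraries. *HDAC2* and *HDAC8* changed places between the 2 kinds of length, because *HDAC2* has a long transcript and *HDAC8* many annotated exons (22986 bases), so their order is not given.

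The genes that carry the enzymes' partners moved in different ways. For NuRD, the nucleosome remodelling complex of HDAC1 and HDAC2, most of the 11 subunits fell. In the order 253J, J82, RT112, TCCSUP, which holds for all strings of 4 values that follow, 8, 6, 7 and 9 were lower and 2, 0, 1 and 0 higher, where 22.4%, 18.5%, 20.2% and 22.1% of all tested genes were lower and 28.8%, 24%, 27.4% and 32% higher. Scaled by library size alone, 5, 3, 6 and 4 were lower and 3, 0, 2 and 1 higher. The median log2 fold changes were -0.57, -0.39, -0.57 and -0.56, against 0.1, 0.047, 0.119 and 0.2 over all tested genes. Of the 11, 5 fell in all 4 lines (*MTA1*, *MTA2*, *CHD3*, *MBD3* and *RBBP4*), as did 6.01% of tested genes. *CHD3*, a remodelling ATPase, had the largest mean change of these (-2.36, -2.1, -2.47 and -3.08, adjusted p at most 7.05e-08). In TCCSUP its controls had 101 and 129 CPM and the treated libraries 13 to 14.2 CPM. *MBD3*, the methyl-CpG-binding domain protein of the complex, followed with values from -0.53 in 253J to -1.74 in J82 (adjusted p at most 0.00859), and *MTA1*, a scaffold that binds HDAC1 directly, with values from -0.45 in J82 to -1.25 in 253J (at most 0.0125). Scaled by library size alone, *MBD3* in 253J (adjusted p = 0.141) and *MTA1* in J82 (0.0873) and TCCSUP (0.124) did not pass, and nor did *MTA1* in J82 with that line fitted alone (0.136 with edgeR).

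For SIN3, the other large HDAC1 and HDAC2 complex, 7, 2, 5 and 6 of the 13 listed subunits rose and 0, 1, 1 and 0 fell. Beside them, 28.8%, 24%, 27.4% and 32% of tested genes rose and 22.4%, 18.5%, 20.2% and 22.1% fell. The share that rose in J82 was thus below that of all genes. After centring on the median gene 3 rose and 2 fell in TCCSUP. *RBBP4* (-1.41, -0.36, -0.69 and -0.41) and *RBBP7* (-0.41, -0.18, -0.68 and -0.56) were placed in the NuRD list alone and not counted for SIN3. The contrast between the 2 lists depends in part on that placement. *ING1*, which reads methylated histone H3, rose in all 4 lines (1.63, 0.55, 0.79 and 1.31, adjusted p at most 0.0171), and so did *SAP30L* (1.23, 0.62, 0.61 and 0.47, at most 0.0333). With J82 fitted alone, *ING1* (adjusted p = 0.0812 with edgeR) and *SAP30L* (0.0717) did not pass there, nor did *SAP30L* in TCCSUP after median centring (0.207). Of the 9 CoREST genes, 2, 5, 4 and 3 rose and 3, 1, 0 and 2 fell. Beside them, 28.8%, 24%, 27.4% and 32% of tested genes rose and 22.4%, 18.5%, 20.2% and 22.1% fell. The scaffold *RCOR1* rose in all 4 lines (0.79, 0.41, 0.8 and 0.33, at most 0.0335), but did not pass with J82 fitted alone (0.121 with edgeR) or in TCCSUP after median centring (0.385). The demethylase *KDM1A* fell in 253J (-0.39, adjusted p = 0.0431, and 0.0685 to 0.523 under 5 alternatives) and rose in J82, RT112 and TCCSUP (1.03, 0.55 and 0.59), and was picked out after its values were seen. Of the 6 MiDAC and MIER genes, 1, 1, 3 and 0 rose and 2, 2, 0 and 1 fell, with none called in the same direction in all lines. The shares of all genes beside these counts are those given for CoREST.

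None of the 5 other genes of the NCoR and SMRT complexes, which hold HDAC3, was called in 1 direction in all 4 lines. Of these 5, 1, 0, 2 and 1 rose and 2, 2, 0 and 3 fell. Of all tested genes, 28.8%, 24%, 27.4% and 32% rose and 22.4%, 18.5%, 20.2% and 22.1% fell, and 5 genes are too few to compare with these shares. The corepressor scaffold *NCOR1* had log2 fold changes of -0.92, -0.65, -0.045 and -1.47, passing in all but RT112 (adjusted p = 0.85), while *GPS2* had 1.65, 0.31, 0.61 and 0.76, passing in all but J82 (0.146). Both were picked out after their values were seen. Among 12 genes of cohesin and its regulators, the setting of the HDAC8 substrate, 9, 7, 5 and 8 fell and 1, 0, 0 and 0 rose. By library size alone, 7, 6, 4 and 7 fell and 1, 1, 0 and 2 rose. In the main fit, 22.4%, 18.5%, 20.2% and 22.1% of tested genes fell and 28.8%, 24%, 27.4% and 32% rose. *STAG2* (-1.55, -1.1, -1.22 and -1.37, adjusted p at most 2.81e-05), *SMC1A* (-1.23, -0.85, -0.96 and -0.92, at most 9e-04), *STAG1* (-1.11, -0.6, -0.89 and -1.04, at most 0.00213) and *MAU2* fell in all 4 lines, as did 6.01% of tested genes, though *STAG1* did not pass with edgeR on J82 alone (0.0591). *SMC3* itself had -0.54, -0.21, -0.43 and -0.055, passing in 253J and RT112, though in neither by library size alone (0.0803 and 0.0686).

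**Figure D4:**
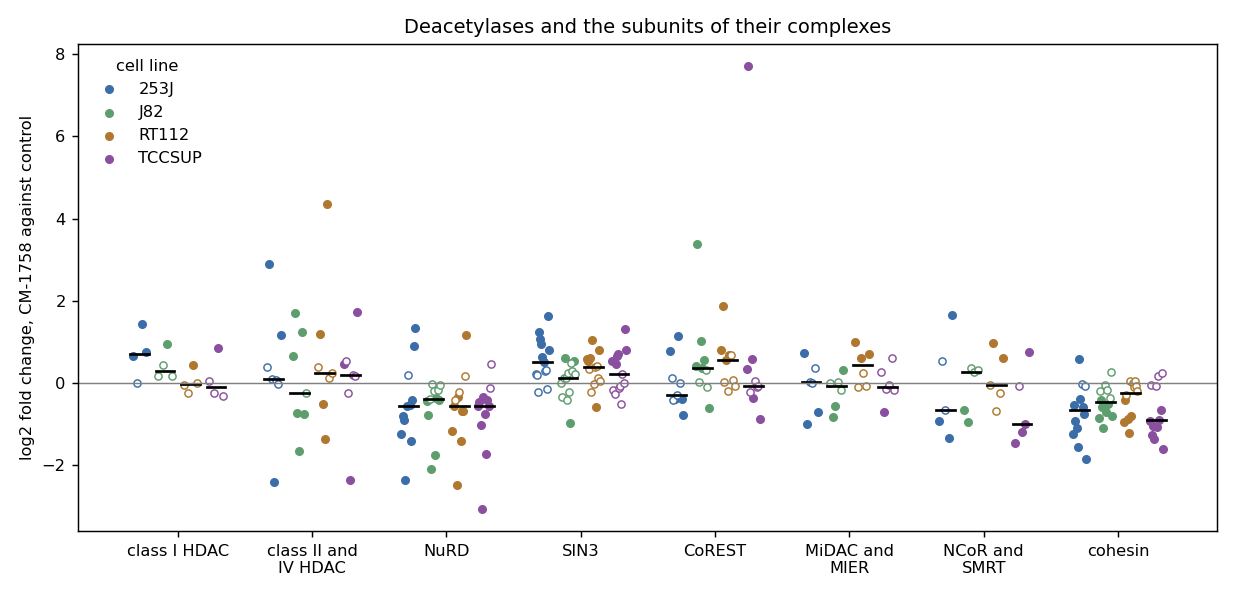
Log2 fold change of CM-1758 against control (vertical axis) for each gene (points) of the class I HDACs, the class II and IV HDACs and the complexes that hold class I enzymes, by cell line (colours), with list medians (bars). Filled points passed an adjusted p of 0.05; the NuRD and cohesin medians lie below 0 in all 4 lines, and the highest point, *RCOR2* in TCCSUP, has 0 counts in both controls and 22 and 28 counts in treated cells, so that its fitted value depends on the prior count.

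The log2 fold changes of the 7 class II and IV deacetylases ran from -2.42 to 4.35. Those of the 4 class I genes ran from -0.32 to 1.44, and the difference in range was not tested. All 7 were tested, and 2, 3, 2 and 2 rose and 1, 3, 2 and 1 fell. Of all tested genes, 28.8%, 24%, 27.4% and 32% were higher and 22.4%, 18.5%, 20.2% and 22.1% lower, and 7 genes are too few to compare with these shares. *HDAC7*, a class IIa enzyme that works through HDAC3 and its corepressors, fell in all 4 lines (-2.42, -1.65, -1.38 and -2.36, adjusted p at most 8.55e-06), from 39.8 and 40.1 CPM to 6.92 and 8.04 CPM in 253J. *HDAC5* rose in 253J, J82 and RT112 (2.9, 1.7 and 1.19) and had 0.54 in TCCSUP (adjusted p = 0.0784, passing under 5 alternatives). *HDAC9* rose in J82 (1.25) and in RT112 (4.35, from 0.474 and 0.752 CPM to 12.6 and 12.7 CPM), lines with little of it in control, and *HDAC11*, the class IV enzyme, rose in 253J (1.17) and TCCSUP (1.72). These 3 were also picked out after their values were seen.

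Genes known to respond to HDAC inhibitors gave a reference for the treatment itself. The dehydrogenase *DHRS2* rose in all 4 lines (7.19, 7.36, 0.76 and 5.84, adjusted p at most 0.0108) and so did the chaperone *CLU* (3.3, 1.79, 2.7 and 1.89, at most 9.62e-06). The nucleotide synthesis enzymes *TYMS* (-1.87, -1.51, -1.14 and -1.64, at most 0.00512) and *CTPS1* (-1.71, -0.55, -1.05 and -1.02, at most 0.0132) fell in all 4, though *CTPS1* did not pass with J82 fitted alone (0.0877 with edgeR). The cell cycle inhibitor *CDKN1A* rose in 253J (1.29), J82 (3.41) and TCCSUP (2.21) and had 0.26 in RT112 (adjusted p = 0.411). For *DHRS2*, *CDKN1A* and *HDAC3* alike, RT112 was the line with the smallest value.

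Over the 8 group means, the members were not alike. *HDAC1* and *HDAC2* had a Pearson correlation of log2 CPM of 0.771, *HDAC3* and *HDAC8* of 0.537, and the other pairs lay between -0.078 and 0.296. Cell line and treatment set these 8 points and the values describe them only. Of 10015 genes with a mean log2 CPM above 3, the most like *HDAC3* were *MTM1* (r = 0.981), *AMN1* (0.981) and *SRXN1* (0.975). For *HDAC1* they were *DCAF11* (0.964), *MRFAP1L1* (0.956) and *HECA* (0.954). For *HDAC2* they were *FAM168A* (0.987), *SLC35A1* (0.97) and *UQCRB* (0.968). For *HDAC8* they were *WDR45* (0.987), *GABARAP* (0.978) and *GPX4* (0.971). With 8 points, 37 to 59 genes exceeded 0.9 for each member.

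The near copies of *HDAC1* and the antisense neighbour of *HDAC2* that have symbols in the count table took few of the reads. The *HDAC1* pseudogenes *HDAC1P1* and *HDAC1P2* had at most 2.02% and 0.562% of the *HDAC1* count of a library. The antisense gene *HDAC2-AS2*, which overlaps *HDAC2*, had at most 1.2% of its count. The libraries were made with a stranded kit, and whether counting used the strand is not given in the sources used here. *HDAC3* overlaps the antisense gene *AC008781.1*, and *HDAC8* overlaps *AL133500.1* on the same strand, which have no symbol in the count table, so that any reads of theirs could be in the counts of *HDAC3* and *HDAC8*.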

How the data were processed

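Total RNA libraries were prepared from 16 cultures and sequenced by a service provider. The authors deposited whole-number read counts per gene symbol, without normalization. The submitters' processing notes name GRCh37, HISAT2 and StringTie, and the counter and its strand setting are not given in the sources used here. The members and the gene lists were chosen with earlier results of these data known.

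Genes were filtered with filterByExpr, which left 21297, and TMM factors set the scaling. A quasi-likelihood fit in edgeR 4.0.16 (R 4.3.3) took in all 8 groups, with p-values adjusted by Benjamini-Hochberg over all tested genes in each contrast. The biological coefficient of variation was 0.153 over all genes and 0.111 to 0.125 for the members. CPM used TMM-scaled library sizes, and log2 CPM for likeness a prior count of 2. Ratios were taken on counts plus 0.5 and tested, like the sum, by exact permutation within cell lines. Partner genes were named where called in 1 direction in all 4 lines, at most 3 per list and direction by mean change, and the inhibitor response genes were all named except 1 that is not reported here. The genes most alike were 3 per member by Pearson correlation. Code was tested on simulated data.

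Lengths and positions came from GENCODE on GRCh38 and promoters from RefSeq, and all 4 members matched by symbol. The labels do not say whether a replicate number pairs a control with a treated library, and the main fit used no pairing. Alternatives were RLE scaling, library size alone, 7 small noncoding RNA genes left out, DESeq2 1.42.0, edgeR on each line alone, other low-count filters, a replicate block, leaving out each library and, chosen after seeing the data, leaving out libraries for the sum, centring on the median gene and the length of all annotated exons.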

Additional observations from a re-analysis of the deposited data

Results flagged for a closer look

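The response to CM-1758 differed between the cell lines for *HDAC1*, *HDAC3* and *HDAC8*, by an interaction test with edgeR over the 4 lines (adjusted p = 0.0412, 0.0164 and 0.0122). *HDAC1* had log2 fold changes of 0.67, 0.17, -0.041 and 0.039 in the order 253J, J82, RT112, TCCSUP. *HDAC3* had 1.44, 0.94, 0.43 and 0.84, and *HDAC8* had 0.75, 0.16, -0.003 and -0.32. Over all tested genes 51.9% passed this test. The part of the differing concentrations in these differences cannot be told apart from that of the cell lines. Groups of 2 libraries are too small to look for outlying samples.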

How the results depend on the processing

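The rise of *HDAC3* in 253J, J82 and TCCSUP and over the 4 lines, the rise of *HDAC1* in 253J and all 6 ratios kept their direction and their side of the threshold under every alternative run for them, with *HDAC3* from 1.34 to 1.71 in 253J, 0.67 to 1.25 in J82 and 0.64 to 1.15 in TCCSUP. The values below are log2 fold changes unless called adjusted p, and in each case the cause was not tested. Of the results that changed sign, none had passed the test before. The summed level held its call under the other scalings and with any library left out (0.28 to 0.37, run after seeing the data) and lost it after centring on the median gene (0.21).

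With RLE scaling and with DESeq2 over all lines the values were the same to 2 digits: 0.037 for *HDAC1* in RT112, 0.04 for *HDAC2* in 253J, 0.075 for *HDAC8* in RT112 and 0.05 for the mean of *HDAC2* had changed sign, and 0.52 for *HDAC2* in J82 and 0.21 for the mean of *HDAC8* now passed. DESeq2 also brought in the difference between lines of *HDAC2* (adjusted p = 0.0305). With library size alone, *HDAC1* was 0.11 in RT112 (sign changed) and 0.35 in TCCSUP (now passing), and *HDAC2* was 0.27 in 253J and 0.067 in TCCSUP (signs changed), 0.57 in J82 (now passing) and 0.21 over the lines (sign changed and now passing, adjusted p = 0.0327). *HDAC8* was 0.15 in RT112 (sign changed) and 0.37 over the lines (now passing). With at least 10 counts in every library, *HDAC1* was 0.088 in RT112, *HDAC8* 0.13 in RT112 and *HDAC2* 0.079 in 253J and 0.11 over the lines (signs changed), and *HDAC2* in J82 (0.54) and the mean of *HDAC8* (0.26) now passed. Without a filter, *HDAC2* was 0.0055 in 253J (sign changed), *HDAC3* in RT112 (0.42) no longer passed, and nor did the difference of *HDAC1* (adjusted p = 0.0529). Without the 7 small noncoding RNA genes *HDAC3* in RT112 (0.43) no longer passed. On each line alone, *HDAC8* in RT112 was 0.0085 with DESeq2 and 0.001 with edgeR (signs changed), and *HDAC2* in TCCSUP passed with edgeR (-0.26). After centring on the median gene, an alternative chosen after seeing the data, *HDAC1* was -0.16 in TCCSUP (sign changed) and 0.092 over the lines, *HDAC3* in RT112 was 0.31 and both no longer passed, while *HDAC2* (-0.45) and *HDAC8* (-0.52) in TCCSUP and the difference of *HDAC2* (adjusted p = 0.0345) now passed.

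Whether the replicate numbers pair the libraries is not stated in the labels. Deviations of same-numbered libraries correlated at 0.0173 in TCCSUP, 0.0427 in RT112 and 0.218 in J82, and 253J shares 1 number between its groups. Low correlations do not exclude pairing. With the replicate block over all lines, *HDAC2* was 0.072 in 253J and 0.004 over the lines (signs changed), and the difference of *HDAC1* had an adjusted p of 0.077. With the block within each line, *HDAC2* was 0.27 in 253J and 0.054 over the lines and *HDAC8* was 0.0018 in RT112 (signs changed). In this fit *HDAC2* in J82 (0.43) and its difference between lines (adjusted p = 0.00473) now passed, and *HDAC8* in 253J (0.57, adjusted p = 0.064) and its difference (0.0817) no longer did. For 253J the block within lines compares the replicate 3 libraries alone, 1 control against 1 treated, since its other numbers are not shared.

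Leaving out each library in turn, where the library left alone in its group is assumed to vary like the others, gave for *HDAC1* 0.0068 to 0.38 in J82, -0.14 to 0.048 in RT112, -0.048 to 0.12 in TCCSUP, 0.17 to 0.27 over the lines and an adjusted p of 0.0168 to 0.193 for the difference. For *HDAC2* it gave -0.23 to 0.26 in 253J, 0.24 to 0.66 in J82, -0.073 to 0.051 over the lines and 0.0231 to 0.286 for the difference. For *HDAC3* it gave 0.37 to 0.49 in RT112 and 0.00358 to 0.0555 for the difference, and for *HDAC8* -0.025 to 0.38 in J82, -0.13 to 0.12 in RT112 and 0.00471 to 0.0614 for the difference.

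Of 48 comparisons of neighbouring levels under other scalings, 43 were unchanged, 1 more passed, and 4 that had not passed changed sign: *HDAC2* in control J82 against RT112 (-0.013 with RLE and -0.2 with library size alone), *HDAC3* in control 253J against RT112 (-0.057) and *HDAC3* in treated J82 against TCCSUP (-0.15). *NCOR1* in RT112, which had not passed, became positive with RLE and DESeq2 (0.034), library size alone (0.1) and the stricter filter (0.085), and ran from -0.2 to 0.093 over the libraries left out. *SMC3* in TCCSUP became 0.26 with library size alone and 0.096 with the stricter filter. Counts of called genes moved by over 1.5 times for genes higher with at least 10 counts in every library (253J 6134 to 3897, J82 5111 to 3209, RT112 5843 to 3324, TCCSUP 6808 to 3729), where fewer genes were tested, for genes lower in J82 with that line fitted alone (3933 to 2595 with DESeq2 and 2504 with edgeR) and for genes lower in TCCSUP with library size alone (4710 to 3137). With 2 libraries per group, the standard errors of the members' changes were 0.15 to 0.176.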
